A study of Mus musculus with 7 samples.

Results

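The 39 genes described here are nuclear genes of oxidative phosphorylation, followed in mouse brain on day 3 after a stroke. They were chosen by gene name: 18 genes of complex I, 3 of complex II, 7 of complex III with cytochrome c, 6 of complex IV and 5 of complex V. The array names 31093 genes, and 23287 of them were tested because 3 or more of the 7 arrays read a probe of theirs well above background. All 39 genes were well above background on all 7 arrays, so the filter removed none of them.

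All mice were males on the C57BL/6N background. In the wild type day 3 group (3 arrays) and the Pla2g2e -/- day 3 group (3 arrays), the middle cerebral artery was blocked for 60 min and the brain was taken on day 3. The wild type sham group was 1 array of sham-operated brain. Its labels also carry the general treatment text on the occlusion, and they state no time after surgery. Pla2g2e encodes a secreted phospholipase A2, an enzyme that frees fatty acids from phospholipids. Which exons the knockout lacks, which region of the brain was taken and whether replicates came from separate animals are not given in the labels. The spread behind each p-value is therefore that of these arrays and may be partly or wholly technical. Below, the arrays are called WT1, WT2 and WT3, KO1, KO2 and KO3, and sham, after their labels.

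Oxidative phosphorylation takes place in the inner mitochondrial membrane. Complex I and complex II pass electrons from NADH and succinate to ubiquinone, complex III passes them on to cytochrome c, and complex IV hands them to oxygen. The protons pumped on the way drive complex V, the ATP synthase. Most subunits are encoded in the nucleus and a few in mitochondrial DNA, and neurons depend on the pathway for most of their ATP. When blood flow stops, oxygen and substrate run out and the pathway stalls.

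The control regions of these genes are known for binding sites of NRF1, GABP, ERR factors and YY1, so their promoters were searched for the letters of these sites. A RefSeq promoter sequence (build GRCm38.p6, 250 bases before to 50 after the annotated start site) was matched for 28 of the 39 genes. The letters GCATGCGC, the core of the NRF1 site, were found in 3 of the 28 (10.7%) and in 2.71% of all 32851 promoter entries. The letters AAGATGGC, the core of the YY1 site, were found in 4 of the 28 (14.3%) and in 2.75% of all entries. The letters CCGGAAGT of the GABP site were in 2 of the 28 (7.14%) and in 3.89% of all entries. The ERR element TCAAGGTCA was in 1 of the 28 (3.57%) and in 0.423% of all entries. Both strands were searched. A gene was counted when any of its promoter entries held the letters, and 3 of the 28 genes have several entries. The shares over all entries count each entry by itself, so the 2 kinds of share are not fully alike. No match of one motif overlapped a match of another, and at least 1 motif was present in 10 of the 28 genes (35.7%) and in 9.25% of all entries. A match describes the letters and not a bound site. The promoter of Cycs, the gene of cytochrome c, is shown because it holds an NRF1 core before the start site. It covers the 250 bases up to the start site at chr6:50566570-50566819 (minus strand), written 5′ to 3′ with the NRF1 core in capitals.
Cycs: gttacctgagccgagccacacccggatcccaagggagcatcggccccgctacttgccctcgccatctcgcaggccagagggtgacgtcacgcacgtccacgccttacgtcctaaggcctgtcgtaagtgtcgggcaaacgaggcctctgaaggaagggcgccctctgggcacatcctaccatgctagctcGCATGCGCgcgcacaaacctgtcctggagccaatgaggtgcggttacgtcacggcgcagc

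The NRF1, YY1 and ERR matches of the other genes lie near the start site and are shown as short windows, with the motif in capitals. The GABP letters, found in Ndufs3 and Cox8a, are not shown. The NRF1 core of Ndufa8 (chr2:36049329-36049356, minus strand) begins 8 bases before the start site, and that of Uqcrc1 (chr9:108936668-108936697, plus strand) is a pair of overlapping copies on opposite strands after it. The 4 YY1 cores belong to complex I genes, Ndufa9 (chr6:126849098-126849125, minus strand), Ndufb8 (chr19:44555393-44555414, minus strand), Ndufs4 (chr13:114388045-114388069, minus strand) and Ndufs7 (chr10:80249463-80249490, plus strand). All 4 begin 24 to 38 bases after the annotated start site and lie on the gene's own strand. The ERR element of Sdhd (chr9:50603800-50603823, minus strand) reads on the opposite strand.
Ndufa8: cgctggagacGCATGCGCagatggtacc
Uqcrc1: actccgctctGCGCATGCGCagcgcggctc
Ndufa9: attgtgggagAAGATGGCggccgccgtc
Ndufb8: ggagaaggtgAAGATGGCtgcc
Ndufs4: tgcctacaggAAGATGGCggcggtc
Ndufs7: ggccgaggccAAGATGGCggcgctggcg
Sdhd: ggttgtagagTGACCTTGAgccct

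The array reads each transcript through probes of 60 bases, and 3 of them are shown because results below turn on them. The probe of Cox4i1 lies at chr8:123197924-123197983 (plus strand) and that of Cyc1 at chr15:76175938-76175997 (plus strand) of mm9, each on its gene's chromosome. The probe of Atp5o is placed by the array design at chr12:85599301-85599360 (minus strand), while the RefSeq table has the gene on chromosome 16. The design also places the brightest probe of Cycs on chromosome 19 with the gene on chromosome 6, and that of Atp5c1 on chromosome 13 with the gene on chromosome 2. Of the brightest probes, 32 are on their gene's chromosome, 3 are on another and 4 are not placed. Signals of probes placed on another chromosome may come partly from near-identical copies and are uncertain to that extent.
Cox4i1: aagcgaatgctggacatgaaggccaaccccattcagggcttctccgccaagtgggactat
Cyc1: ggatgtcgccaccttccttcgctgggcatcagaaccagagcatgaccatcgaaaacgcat
Atp5o: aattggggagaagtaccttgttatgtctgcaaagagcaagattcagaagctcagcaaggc

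All levels are log2 signal minus the log2 of that array's 75th percentile, read from the gene's brightest probe, and differences are on that log2 scale. Between 72.5% and 79.1% of the 43020 spots other than controls were well above background on each array, and no spot was saturated. Arrays give no count of molecules, so their number limits the precision. The 3 wild type day 3 arrays and sham lay on slide 1 and the 3 knockout arrays on slide 2. An effect of the slide and one of genotype cannot be told apart. The brighter probe of Pla2g2e read -6.89, -3.68 and -3.36 on WT1 to WT3, -4.44, -5.83 and -4.97 on KO1 to KO3 and -4.69 on sham. The second probe, well above background on 3 of the 7 arrays, read -9.0, -6.72 and -6.50 on WT1 to WT3, -7.94, -8.44 and -7.84 on KO1 to KO3 and -6.83 on sham. On both probes WT2 and WT3 lay above all knockout arrays and WT1 lay below them, so the day 3 groups separated only without WT1. WT1 stood apart from the rest: its log2 signals correlated with those of the others at 0.857 to 0.916 across genes, against 0.968 to 0.991 for the other pairs. It was the highest array for 15 of 15 neuron markers and the lowest for 9 of 11 microglia and macrophage markers, 6 of 6 endothelial and 5 of 5 cell cycle markers. The phagocyte gene Cd68 read 0.61 on WT1 and 4.75 to 5.53 elsewhere, with 5.11 on sham, and the proliferation gene Mki67 read -3.71 on WT1 and 1.91 to 2.73 elsewhere, with 2.73 on sham. These markers on WT1 go against its day 3 label, and Cd68 and Mki67 on sham were at the level of the day 3 arrays other than WT1. Other markers on sham were low: it was below those 5 day 3 arrays for 6 of 6 endothelial, 3 of 4 erythroid and 4 of 5 neutrophil markers. The neutrophil gene S100a8 read 0.43 on sham, -3.21 on WT1 and 1.95 to 3.41 on the others. The comparisons below are given with and without WT1.

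Across the 6 arrays other than WT1, the 39 genes varied less than most genes on the array. The median SD of a gene over these 6 arrays was 0.08, against 0.24 over all features and 0.18 over the 4780 features at least as bright as the dimmest of the 39. The whole range from the lowest to the highest of the 6 arrays was under 0.3 for 30 of the 39 genes (76.9%), and for 14.4% of all features. Ndufa4 had the smallest range, with 3.74 and 3.71 on WT2 and WT3, 3.70 on sham and 3.66, 3.75 and 3.72 on KO1 to KO3. The largest ranges belonged to Atp5o (0.98), Ndufa2 (0.91) and Ndufa9 (0.85), and in each of these a single array was low: KO1 for Atp5o and sham for the others. Cell type markers had wider ranges over the same 6 arrays, with medians of 2.07 for neurons and 0.67 for microglia and macrophages against 0.22 for the 39 genes. Ranges ran from 0.29 to 1.19 for the microglia and macrophage markers. They were 1.27 to 4.01 for the neuron markers, 1.20 to 2.03 for the oligodendrocyte markers, 0.99 to 1.64 for the endothelial markers and 0.67 to 3.20 for the astrocyte markers. In a tissue sample a change in the number of cells of a type cannot be told apart from a change in RNA per cell.

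**Figure D1:**
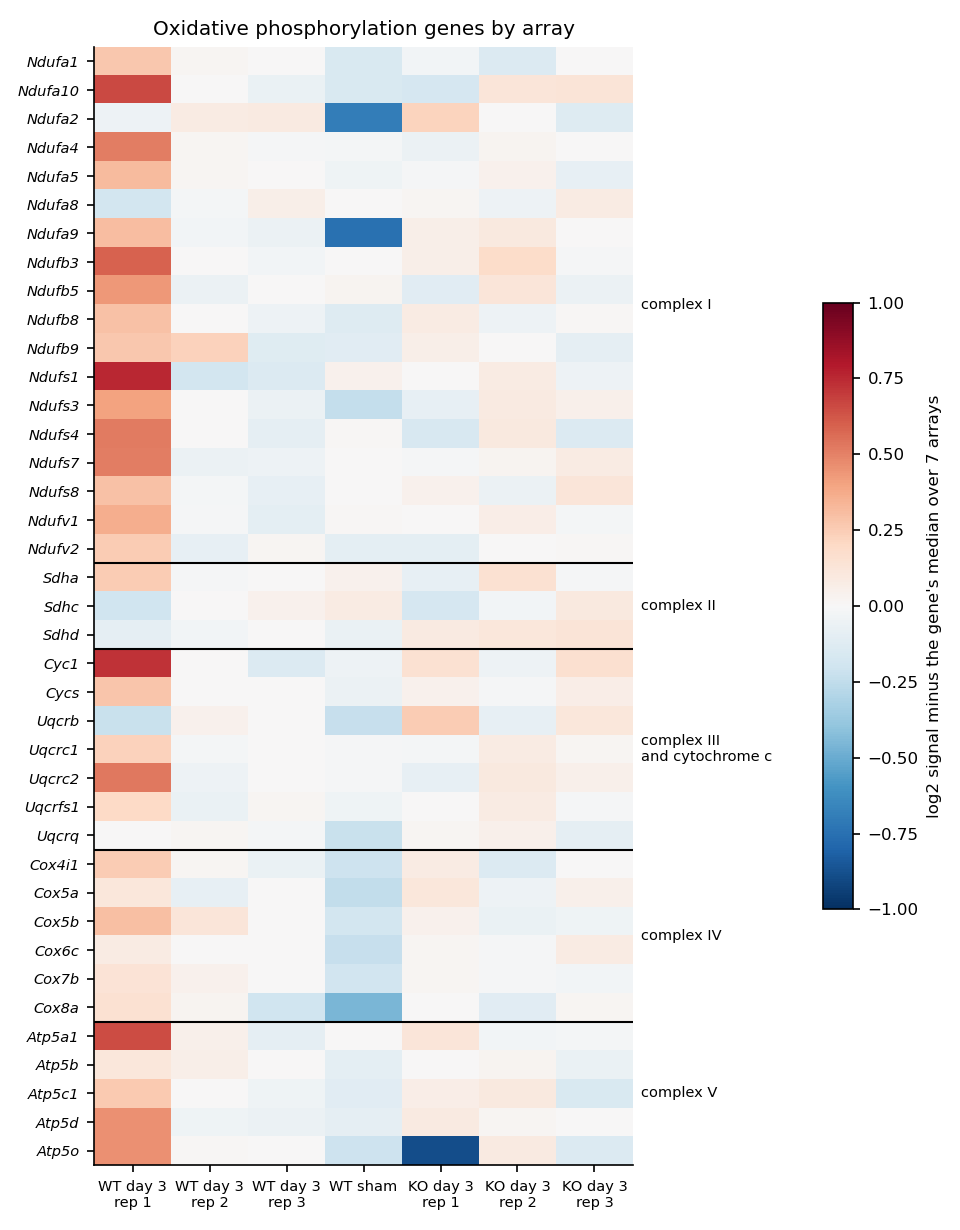
Heat map of the 39 genes (rows, by complex) on the 7 arrays (columns, by label). Colour is the log2 signal minus the gene's own median over the 7 arrays, from -1 (blue) to 1 (red). WT day 3 replicate 1 is red for most genes, sham is blue in complex IV and for Ndufa2 and Ndufa9, and KO day 3 replicate 1 is blue for Atp5o.

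Setting the knockout against the wild type arrays of day 3 addresses whether mice lacking Pla2g2e have a different level of these transcripts in the injured brain. No gene of the 39 was called. The limma test called 0 of 23287 features at an adjusted p under 0.05 (0%), and the adjusted p of the 39 genes lay between 0.862 and 1.0. At an unadjusted p under 0.05 it had 0 of the 39 and 196 of all features (0.842%). The median difference, knockout minus wild type, was -0.07 over the 39 genes and -0.03 over all features, with 6 of the 39 higher and 33 lower in knockout. Over the 4780 bright features it was 0.11, with 2986 higher. Without WT1 the median was 0.04, with 26 higher and 13 lower, against 0.00 over all features and 0.01 over the bright ones. The direction of the median thus turned when this 1 array was left out. Quantile normalization gave -0.16, with 4 higher and 35 lower. Without WT1 the test again called 0 of the 39, none was under an unadjusted p of 0.05, and 379 of all features were (1.63%). The 95% interval of a single gene's difference, with no adjustment for the number of features, reached 0.40 to 0.80 to each side with all arrays (median 0.46) and 0.30 to 0.84 without WT1 (median 0.32).

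WT1 was the highest of the 7 arrays for 31 of the 39 genes and the lowest for 3. Over all 23287 features it was the highest for 43.9% and the lowest for 8001. Among the 4780 bright features it was the highest for 1541 and the lowest for 2393. The share of genes highest on WT1 was uneven over the complexes: 16 of 18 genes in complex I, 1 of 3 in complex II, 5 of 7 in complex III with cytochrome c, 4 of 6 in complex IV and 5 of 5 in complex V. WT1 lay above the mean of the other 6 arrays by a median of 0.40 in complex I, 0.22 in complex III, 0.22 in complex IV and 0.47 in complex V, and below it by -0.13 in complex II. Over the neuron markers the same median was 2.62. The summed level of the neuron markers was 8.15 on WT1 and 4.80 to 6.58 on the other arrays, and the part of neurons in the levels of the 39 genes was not tested. The knockout and wild type arrays did not overlap for 2 of the 39 genes, 1 higher (Sdhd) and 1 lower (Ndufa1), and for 4.53% of all features. Without WT1 they did not overlap for 6, which were Sdhd, Ndufa9, Ndufs1, Ndufs7 and Atp5d higher and Ndufa1 lower, and for 11.6% of all features.

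**Figure D2:**
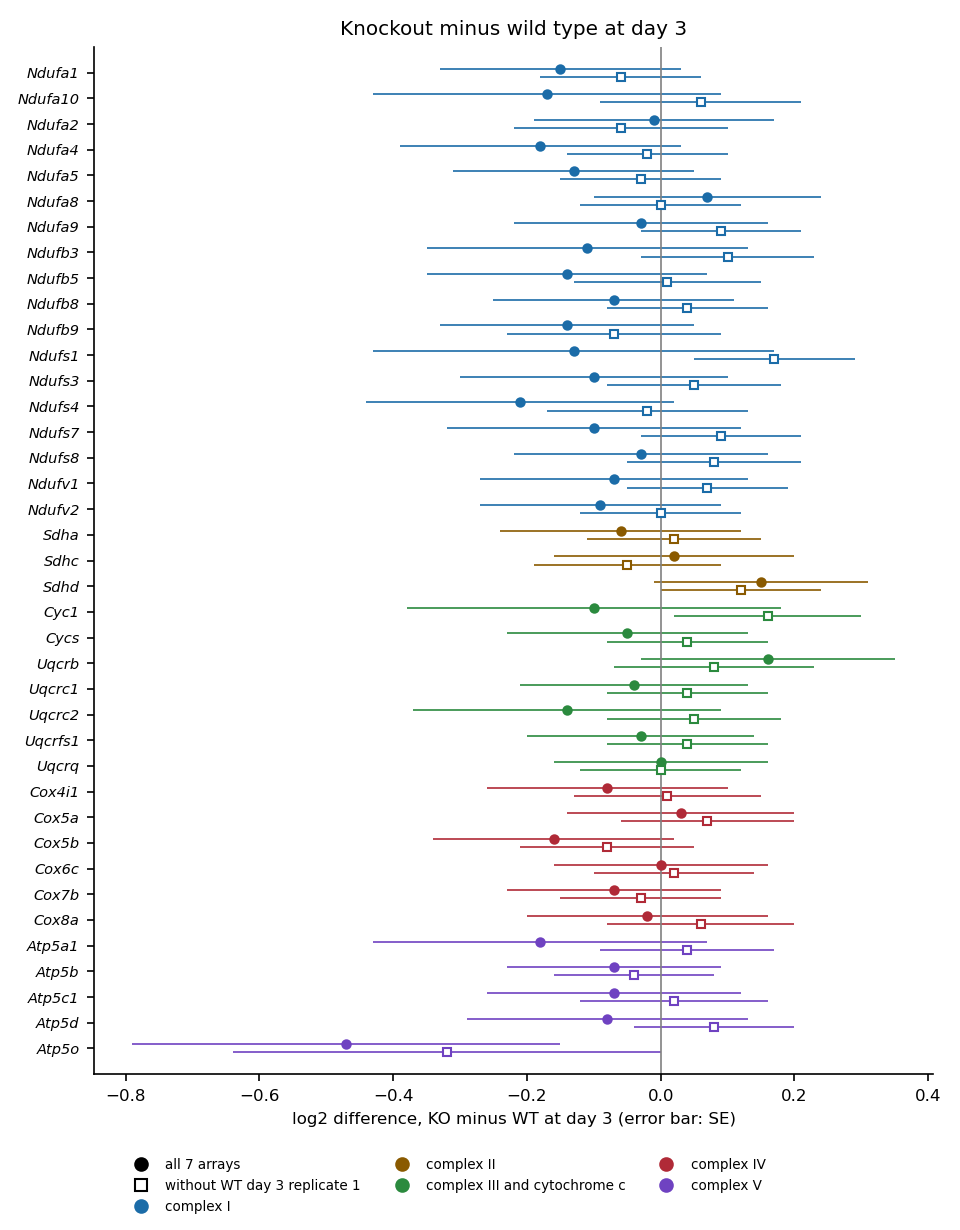
Log2 difference, knockout minus wild type at day 3, for each of the 39 genes, as the limma estimate with its SE (bar). Filled circles use all 7 arrays and open squares leave out WT day 3 replicate 1; colour marks the complex. Most filled circles lie left of 0 and most open squares at or right of it, with Atp5o the farthest from 0 in both.

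Complex I takes electrons from NADH. Its core subunits among the 39 are Ndufs1, Ndufs3, Ndufs7, Ndufs8, Ndufv1 and Ndufv2, which carry the flavin and iron-sulfur centres or their scaffold, and the others are accessory subunits. In all, 17 of the 18 genes were lower in knockout, with a median of -0.10, and without WT1 11 were higher and 7 lower, with a median of 0.02. Ndufs4, an accessory subunit whose loss causes a Leigh-like disease in mice, read 3.33, 2.81 and 2.72 on WT1 to WT3, 2.65, 2.91 and 2.67 on KO1 to KO3 and 2.82 on sham. Only WT1 stood outside the others, and the difference was -0.21 ± 0.23 (SE), or -0.02 ± 0.15 without WT1. Ndufa1, an accessory subunit encoded on the X chromosome, read 4.99, 4.74 and 4.72 in wild type, 4.69, 4.58 and 4.72 in knockout and 4.57 on sham, a difference of -0.15 ± 0.18. The knockout arrays lay just below the wild type arrays, by less than the 2 decimals printed between WT3 and KO3, and without WT1 the difference was -0.06 ± 0.12.

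Ndufs1, the large iron-sulfur subunit, read 3.93 on WT1 and 3.00 and 3.04 on WT2 and WT3, 3.18, 3.26 and 3.13 on KO1 to KO3 and 3.22 on sham. WT1 was above the knockout arrays and the other wild type arrays below them, so the difference was -0.13 ± 0.30 with all arrays and 0.17 ± 0.12 without WT1 (limma, unadjusted p = 0.223). Ndufs7, which carries the last iron-sulfur centre before ubiquinone, read 4.54, 3.97 and 3.98 in wild type and 4.02, 4.06 and 4.11 in knockout, with 4.03 on sham. Ndufa5, an accessory subunit, read 5.09, 4.79 and 4.77 in wild type, 4.76, 4.81 and 4.69 in knockout and 4.73 on sham. Ndufb5, a membrane arm subunit, read 3.96, 3.47 and 3.53 in wild type, 3.42, 3.65 and 3.47 in knockout and 3.56 on sham. In both of them WT1 was the highest array and the rest overlapped. Ndufb9, another membrane arm subunit, read 5.15, 5.11 and 4.76 in wild type, 4.94, 4.88 and 4.79 in knockout and 4.77 on sham, so WT1 and WT2 were high there. Ndufa4, named for complex I and assigned by later work to complex IV, differed by -0.18 ± 0.21, with 4.23 on WT1, and by -0.02 ± 0.12 without WT1. Ndufa8 was the 1 complex I gene higher in knockout, at 0.07 ± 0.17, with its lowest value of 2.65 on WT1.

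Complex II oxidises succinate and joins the citric acid cycle to the respiratory chain. Its 3 genes had a median difference of 0.02 with and without WT1. Sdhd, a membrane anchor, read 3.26, 3.32 and 3.35 on WT1 to WT3, 3.28 on sham and 3.44, 3.46 and 3.48 on KO1 to KO3. All 3 knockout arrays were above all 4 wild type arrays, and the difference was 0.15 ± 0.16 (SE) with all arrays and 0.12 ± 0.12 without WT1 (limma, unadjusted p = 0.391 and 0.341). Sdha, the flavoprotein that holds the succinate site, read 3.80, 3.54 and 3.55 in wild type, 3.47, 3.70 and 3.54 in knockout and 3.59 on sham, a difference of -0.06 ± 0.18. Sdhc, the other membrane anchor, read 2.72, 2.92 and 2.96 in wild type, 2.75, 2.89 and 3.02 in knockout and 3.00 on sham. WT1 was thus the lowest array for both anchors and the highest for Sdha. The second probe of Sdhc did not share the low WT1 value, reading 2.63 there and 2.45 to 2.66 on the others.

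Complex III moves electrons from ubiquinol to cytochrome c. Its 7 genes, cytochrome c included, had a median difference of -0.04, or 0.04 without WT1. Uqcrb, a subunit near the ubiquinone site, read 4.06, 4.32 and 4.28 on WT1 to WT3, 4.53, 4.20 and 4.39 on KO1 to KO3 and 4.05 on sham. WT1 and sham were the lowest arrays, and the difference was 0.16 ± 0.19, or 0.08 ± 0.15 without WT1. Its other 2 probes gave 0.18 ± 0.17 and 0.23 ± 0.18 in a fit of all probes, the dimmest of them placed on chromosome 14 while the gene is on chromosome 13. Uqcrc2, a core protein, read 4.08, 3.50 and 3.55 in wild type, 3.47, 3.65 and 3.60 in knockout and 3.54 on sham. Cyc1, the haem-bearing cytochrome c1 whose probe is printed above, read 3.46, 2.74 and 2.60 in wild type, 2.89, 2.69 and 2.90 in knockout and 2.69 on sham. WT1 was the highest array for both, and without it the differences turned from -0.14 ± 0.23 to 0.05 ± 0.13 for Uqcrc2 and from -0.10 ± 0.28 to 0.16 ± 0.14 for Cyc1. Uqcrq, a small subunit, read 5.14, 5.16 and 5.12 in wild type and 5.16, 5.19 and 5.05 in knockout, with 4.92 on sham, the lowest array.

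Cycs encodes cytochrome c, the carrier between complexes III and IV and a trigger of apoptosis when it leaves the mitochondrion. Its 3 probes did not agree in how much they varied. The brightest read 4.31, 4.03 and 4.03 on WT1 to WT3, 3.97 on sham and 4.07, 4.02 and 4.10 on KO1 to KO3. The second, also placed on chromosome 19, read 3.65 on WT1, 2.41 and 2.37 on WT2 and WT3, 2.58 on sham and 2.33, 2.64 and 2.20 on KO1 to KO3. The third is the 1 placed on chromosome 6, where the gene lies. It read -2.83 on WT1, -5.35 and -5.58 on WT2 and WT3, -4.51 on sham and -5.94, -4.67 and -6.10 on KO1 to KO3. On the 2 dimmer probes the 3 highest arrays were WT1, KO2 and sham, and KO3 was the lowest. The summed neuron markers had the same 3 highest arrays, with 8.15 on WT1, 6.58 on KO2 and 6.49 on sham, and the lowest, 4.80, on KO3. The difference between knockout and wild type was -0.05 ± 0.18, -0.42 ± 0.40 and -0.98 ± 0.85 on the 3 probes (SE, fit of all probes), and 0.04, 0.00 and -0.10 without WT1. The second probe of Ndufb5 had the same 3 highest arrays, with 1.03 on WT1, 0.33 on sham, 0.41 on KO2 and 0.00 to 0.06 on the others. The dimmer probes of the other genes with several probes (Ndufa5, Sdhc, Uqcrb, Uqcrq, Cox8a and Atp5c1) did not have these 3 highest arrays. The part of neurons in these values was not tested.

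**Figure D3:**
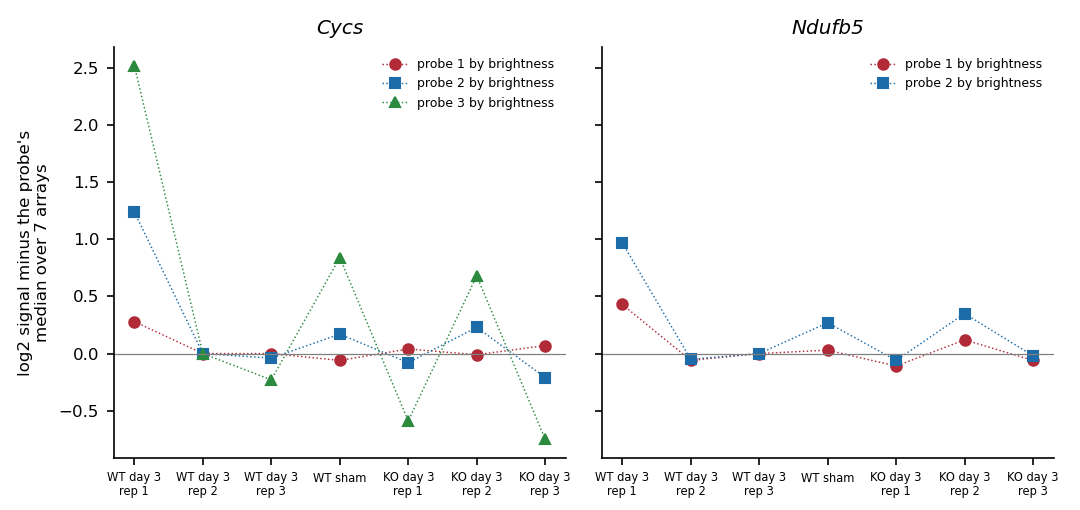
Log2 signal of each probe of Cycs (3 probes) and Ndufb5 (2 probes) minus that probe's own median over the 7 arrays, by array. For Cycs the brightest probe stays within 0.34 from its lowest to its highest array, while the dimmest peaks on WT day 3 replicate 1 and is also high on sham and KO day 3 replicate 2.

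Complex IV reduces oxygen to water. Its 6 genes had a median difference of -0.05 between knockout and wild type, with 2 higher and 4 lower, and of 0.02 without WT1. With quantile normalization it was -0.17, with 6 of 6 lower. Cox5b, a zinc-binding subunit, read 4.89, 4.71 and 4.59 on WT1 to WT3, 4.63, 4.52 and 4.55 on KO1 to KO3 and 4.41 on sham, a difference of -0.16 ± 0.18, or -0.08 ± 0.13 without WT1. Cox4i1, the subunit through which ATP is known to slow the enzyme, read 6.18, 5.95 and 5.86 in wild type, 6.01, 5.79 and 5.93 in knockout and 5.72 on sham. Cox5a read 5.47, 5.28 and 5.36 in wild type, 5.47, 5.31 and 5.41 in knockout and 5.11 on sham. Cox7b, a small subunit, read 4.66, 4.56 and 4.52 in wild type, 4.54, 4.51 and 4.49 in knockout and 4.33 on sham. In each of these the knockout and wild type arrays overlapped and sham was below all 6 day 3 arrays. The differences were -0.08 ± 0.18 for Cox4i1, 0.03 ± 0.17 for Cox5a and -0.07 ± 0.16 for Cox7b.

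Complex V makes ATP. All 5 of its genes were lower in knockout, with a median difference of -0.08, and without WT1, the highest array for all 5, 3 were higher and 2 lower with a median of 0.02. Atp5o, the subunit known as OSCP that joins the catalytic head to the peripheral stalk, had the largest difference of the 39 genes. It read 2.89, 2.44 and 2.43 on WT1 to WT3, 1.54, 2.52 and 2.29 on KO1 to KO3 and 2.22 on sham. Only KO1 was low, and the group means were 2.59 ± 0.26 in wild type and 2.11 ± 0.51 in knockout (SD, n = 3 each). The difference was -0.47 ± 0.32 (SE; limma, unadjusted p = 0.192), -0.32 ± 0.32 without WT1 and -0.19 without KO1. Atp5a1, the catalytic head's alpha subunit, read 5.17, 4.57 and 4.43 in wild type, 4.64, 4.49 and 4.50 in knockout and 4.52 on sham. Atp5b, the beta subunit that forms ATP, read 6.10, 6.05 and 5.99 in wild type, 5.99, 6.02 and 5.92 in knockout and 5.89 on sham. The alpha subunit thus stood out on WT1 and the beta subunit hardly did. Their differences were -0.18 ± 0.25 and -0.07 ± 0.16, and without WT1 0.04 ± 0.13 and -0.04 ± 0.12. Atp5d, a subunit of the central stalk, read 3.35, 2.85 and 2.83 in wild type, 2.98, 2.91 and 2.89 in knockout and 2.80 on sham.

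**Figure D4:**
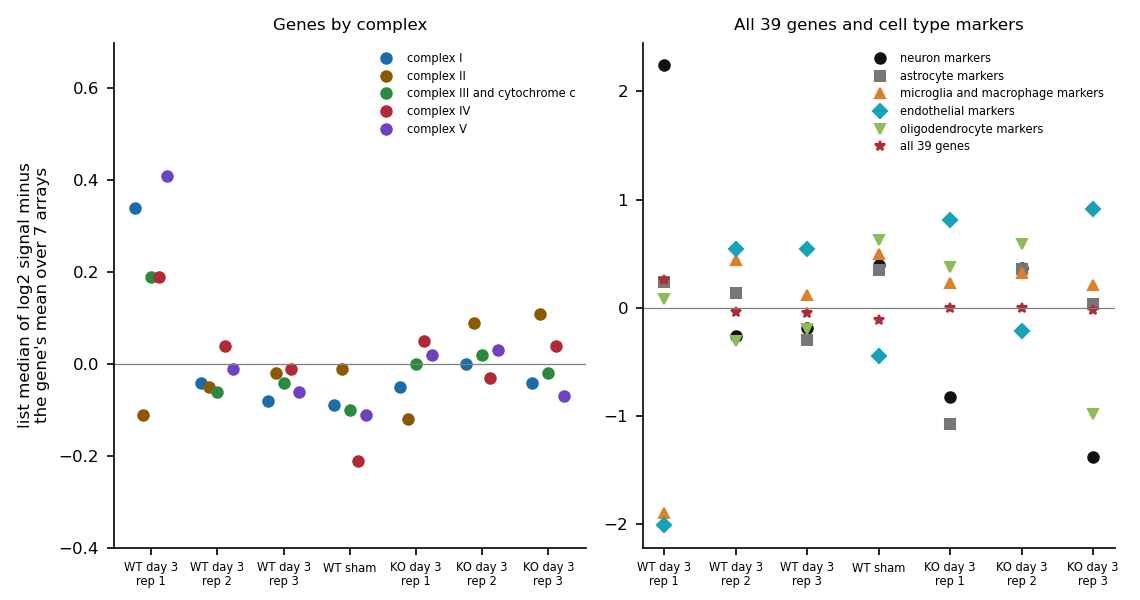
Median over a gene list of the log2 signal minus each gene's mean over the 7 arrays, by array. The left panel shows the 5 complexes and the right panel, on a wider scale, all 39 genes with 5 cell type marker lists; neuron markers reach 2.24 on WT day 3 replicate 1 and all 39 genes 0.26, while complex IV is at -0.21 on sham.

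Wild type day 3 against sham compares arrays by these labels. Markers given above went against the label of WT1. On sham Cd68 (5.11) and Mki67 (2.73) were at the level of the other day 3 arrays, while endothelial, erythroid and neutrophil markers were mostly low. Whether a difference from sham comes from the occlusion was not tested. Knockout day 3 against the wild type sham differs in occlusion, genotype and slide at once, and these cannot be told apart there. Both rest on a single sham array, whose spread the fit takes from the day 3 groups, and which they share. No gene of the 39 was called in either, where limma called 3 of 23287 features in each (0.0129%). Wild type day 3 minus sham had a median of 0.19 over the 39 genes, with 37 higher and 2 lower, against 0.03 over all features and 0.07 over the 4780 bright ones. Without WT1 it was 0.05, with 27 higher and 12 lower, against 0.16 over the bright features. Knockout day 3 minus sham had a median of 0.09, with 33 higher and 6 lower. It was 0.00 over all features and 0.16 over the bright ones, 3476 of which were higher, so the median of the 39 genes lay above the first and below the second. Quantile normalization, which forces the same distribution of signals on every array, moved these medians to 0.03 (25 higher) and -0.14 (9 higher and 30 lower). Over all features the medians were then 0.03 and 0.01. The direction of knockout against sham thus depended on how the arrays were scaled, while wild type against sham became smaller and kept its direction. With normexp background correction the median of all features itself moved to 0.10 and 0.11, beside 0.19 and 0.08 for the 39 genes.

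Sham was the lowest of the 7 arrays for 16 of the 39 genes and for 10.4% of all features. It was below the other 5 day 3 arrays, WT1 left out, for 17 of the 39 and above them for 0. Over all 23287 features it was below them for 24.9% and above them for 5071. Among the 4780 bright features it was the lowest of the 7 for 773, below the 5 for 2253 and above them for 431. The share of the 39 genes with sham below the 5 was thus near that of the bright features. By complex sham was the lowest for 5 of 18 genes in complex I, 0 of 3 in complex II, 3 of 7 in complex III, 6 of 6 in complex IV and 2 of 5 in complex V. The median over complex IV, day 3 minus sham, was 0.26 for wild type, 0.22 for wild type without WT1 and 0.22 for knockout. With quantile normalization it was 0.07 with 6 of 6 higher for wild type and -0.08 with 1 of 6 higher for knockout. Cox8a, a small membrane subunit, had the largest difference of complex IV. It read 6.27, 6.15 and 5.92 on WT1 to WT3, 6.12, 6.01 and 6.14 on KO1 to KO3 and 5.66 on sham. Both groups were above sham, by 0.45 ± 0.26 and 0.43 ± 0.26 (SE; limma, unadjusted p = 0.134 and 0.151). Its second probe read 5.55 on sham and 5.66 to 6.15 at day 3, again with sham the lowest. Cox6c, another small subunit, read 4.84 on sham and 5.06 to 5.15 at day 3.

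Ndufa9 and Ndufa2 were the 2 of the 39 genes with an unadjusted p under 0.05 against sham. All features had 1.12% under it for wild type and 1.31% for knockout. Without WT1 the same 2 genes were under it for both groups, beside 4.51% of all features for wild type and 4.91% for knockout. Ndufa9, an accessory subunit that joins the arms of complex I, read 1.48 on sham, 2.54, 2.20 and 2.17 on WT1 to WT3 and 2.29, 2.33 and 2.23 on KO1 to KO3. It exceeded sham by 0.83 ± 0.27 in wild type and 0.80 ± 0.27 in knockout (SE; limma, unadjusted p = 0.0227 and 0.0257, adjusted p = 1.0 each). With array weights, which gave WT1 a weight of 0.0513, the wild type difference of Ndufa9 was called at 0.72 (adjusted p = 0.045 in limma). That setting also called many more of all features in this comparison than the main fit did, as counted in the closing section. Estimation of the weights stopped before it converged. Ndufa2, an accessory subunit with a thioredoxin-like fold, read 3.99 on sham, 4.63, 4.76 and 4.77 in wild type and 4.90, 4.68 and 4.55 in knockout. It exceeded sham by 0.73 ± 0.26 and 0.72 ± 0.26 (unadjusted p = 0.0321 and 0.0343 in limma). For both genes sham lay below all 6 day 3 arrays, which overlapped between genotypes.

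Both probes sit at the edge of the array, which has 85 columns of spots: Ndufa9 in column 85 and Ndufa2 in column 2. Spots at least as bright as the dimmest of the 39 genes were counted as low on an array when they read more than 0.5 below the median of the other 6 arrays. On sham 42.6% of such spots in column 85 were low, 20.0% in column 84 and 12.1% in column 83, against 9.42% in columns 4 to 82. On the other side, where Ndufa2 lies, the share was 9.62% in column 1, 15.3% in column 2 and 6.67% in column 3, and the median difference in column 2 was -0.11 against -0.14 in the middle columns. In column 85 the 5 other day 3 arrays had 1.64% to 6.56%. WT1 had 37.7% there, and 41.2% of its spots in columns 4 to 82 were low. Atp5c1, the central stalk's gamma subunit, has a probe at the edge and one in the middle. Its brighter probe, in column 43, read 4.26 on sham and 4.22 to 4.63 at day 3, while its dimmer probe, in column 83, read 1.54 on sham and 2.06 to 2.35 at day 3. Of the 39 genes, Ndufb9 and Sdhd also have their brightest probes at the edge, and sham was not their lowest array. Ndufb9, also in column 2, read 4.77 on sham and 4.76 to 5.15 at day 3. Sdhd, in column 83, read 3.28 on sham, 3.26 on WT1 and 3.32 to 3.48 on the other day 3 arrays. Edge spots of genes outside the 39 went both ways. The citric acid cycle gene Fh1, in column 85, read 1.96 on sham and 2.67 to 2.80 at day 3. Dlst, of the same cycle and in column 84, read 2.26 on sham and 2.08 to 2.39 at day 3. Without the 3 outermost columns on each side, a choice made after seeing the data, 35 of the 39 genes remained. Ndufa9, Ndufa2, Ndufb9 and Sdhd were left out. The medians against sham were then 0.19 for wild type and 0.08 for knockout.

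**Figure D5:**
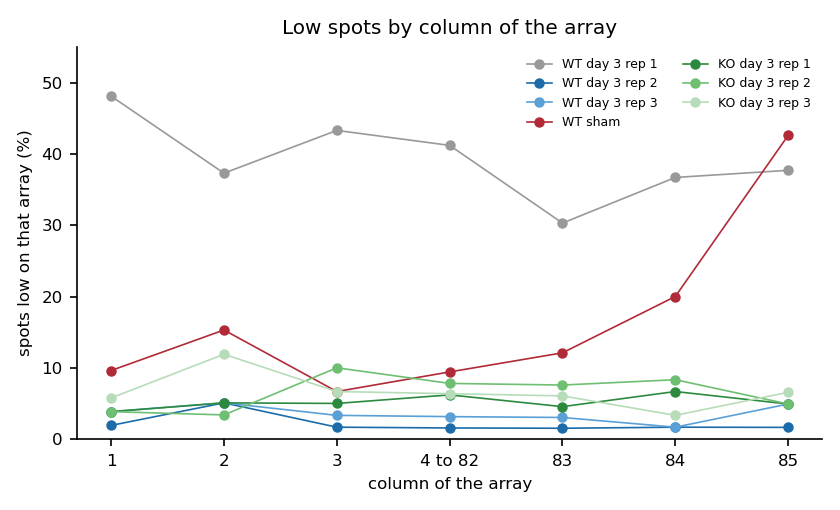
Percentage of bright spots that read more than 0.5 (log2) below the median of the other 6 arrays, by column of the array and by array. Sham reaches 42.6% in column 85 against 9.42% in columns 4 to 82, WT day 3 replicate 1 is high in all columns, and the other 5 arrays stay at or below 11.9%.

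The other nuclear subunits on the array had a median SD of 0.08 over the 6 arrays without WT1, as the 39 genes had. Of 49 names, 46 were tested, none was called or had an unadjusted p under 0.05 between knockout and wild type, and their median difference was -0.04, or 0.02 without WT1. WT1 was the highest array for 29 of the 46 and sham the lowest for 30. Against sham their medians were 0.18 for wild type and 0.13 for knockout, and with quantile normalization -0.02 and -0.14. In complex I, Ndufa6 read 3.26 on WT1 and 2.58 to 2.85 on the others. Ndufab1, the mitochondrial acyl carrier protein, went the other way, with -2.96 on WT1 and -0.91 to -0.60 on the others. Cox8b, a heart and muscle form of subunit 8, had the largest difference between genotypes at -1.34 ± 0.66 (SE; limma, unadjusted p = 0.0902), with -3.11 on WT1 and -6.20 to -4.98 on the others, and -0.62 without WT1. Cox6a2, another muscle form, read 1.00 on WT1 and -0.34 to -0.04 on the others. Atp5g2, one of the genes of the membrane ring of complex V, was the lowest on WT1, at 5.13 against 5.39 to 5.65. Atp5j2, a membrane subunit of complex V named after its values were seen, read 4.13 on sham and 4.80 to 4.96 at day 3, from a spot in column 8. Names of mitochondrially encoded subunits matched no gene name on the array, and these subunits are not analysed here.

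Genes around the pathway were read in the same way, and limma called none in any comparison, with or without WT1. The 27 assembly factors tested had a median difference of -0.06 between knockout and wild type, or 0.04 without WT1. Ttc19, an assembly factor of complex III, read 2.19 on WT1 and 0.33 to 0.82 on the others, and Cox11, a copper chaperone of complex IV, 1.72 and 0.84 to 1.08. The 13 regulators had a median of -0.16, or -0.04 without WT1. Ppargc1a, the coactivator that drives mitochondrial biogenesis, read 1.73, 0.14 and -0.21 on WT1 to WT3, -0.77, 0.59 and -0.69 on KO1 to KO3 and 0.57 on sham, a difference of -0.84 ± 0.64, or -0.26 without WT1. Its 3 highest arrays, WT1, KO2 and sham, were those of the neuron markers. Esrra, the receptor that reads the ERR element, read 3.01 on WT1 and 2.28 to 2.55 on the others. The 16 citric acid cycle genes had a median of -0.13, or 0.10 without WT1, and WT1 was the highest array for 13 of them. Dlat, a pyruvate dehydrogenase subunit, read 1.39 on WT1 and -0.74 to 0.04 on the others. Fh1, fumarase, named after its values were seen, read 1.96 on sham and 2.67 to 2.80 at day 3, from a spot in column 85. Among the 12 carriers, channels and import genes, Ucp2, an uncoupling protein gene of phagocytes and other cells, read -2.76 on WT1 and 0.73 to 1.81 on the others. Tomm70a, an import receptor, read 2.70 on WT1 and -0.78 to 0.29 on the others.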

How the data were processed

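RNA from 7 mouse brain samples was hybridised in 1 colour (Cy3), 1 sample per array. The deposited files hold spot intensities, which Agilent Feature Extraction 11.5.1.1 wrote (version per the submitters' processing notes). They are background-subtracted and detrended within each array, per the file headers. The deposited value table gives each spot as a linear ratio: a comparison with the scanner files showed the signal over the array's 75th percentile to within 0.0428%, with column medians of 0.0942 to 0.107; it served as an alternative.

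Here the processed signal was taken to log2, minus each array's 75th percentile over spots other than controls. Outlier spots (91 to 147 per array) were left out and spots of a probe averaged, which kept 39401 of 39429 probes. A feature is a gene name in the files, read from its probe with the highest mean among those well above background on at least 3 arrays. limma 3.58.1 in R 4.3.3 (lmFit, eBayes) was fitted to all 7 arrays in 3 groups, with 4 residual and 1.68 prior degrees of freedom, two-sided, with Benjamini-Hochberg adjustment over 23287 features. Calls needed an adjusted p under 0.05.

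Probe coordinates are those of the array design (mm9), and RefSeq tables of GRCm38.p6 gave chromosomes and promoters. Genes were named by the smallest unadjusted p per complex (6, 2, 4, 4 and 3 genes of complexes I to V between genotypes, and 1 per comparison with sham) and up to 4 per other list; others were named after their values were seen. The genes, lists and rules were chosen with earlier results of these data known. The fit was tested on simulated data. Alternatives covered background correction, normalization, the filter, the probe, array weights, the samples in the fit, the replicate number as a block and leaving out each array. Plots used Python 3.11.15 and matplotlib 3.10.9.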

Additional observations from a re-analysis of the deposited data

How the results depend on the processing

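The medians of the 39 genes moved by less than the pooled SD between replicates (0.122) except against sham. That SD rests largely on WT1. The median of the 39 genes, each minus its mean over the 7 arrays, was 0.26 on WT1 and -0.05 to 0.00 on the other day 3 arrays. It is thus no measure of the spread among those arrays, and knockout minus wild type still changed sign without WT1. Wild type minus sham had a median of 0.05 without WT1 and with array weights and 0.03 with quantile normalization, and knockout minus sham had -0.14 with quantile normalization. Leaving out 1 array at a time gave medians of -0.13 to 0.04 for knockout minus wild type, 0.05 to 0.25 for wild type minus sham and 0.08 to 0.10 for knockout minus sham. Over all features, knockout minus wild type had 0 calls under every alternative except array weights (2). The 3 calls of each comparison with sham became 0 to 6 for wild type and 0 to 8 for knockout when 1 array was left out, the 6 and 8 without WT1. They were 0 with only the 2 groups compared, with normexp, with quantile normalization and with probes well above background on all 7 arrays, and 146 and 95 with array weights, whose estimation stopped before it converged. None of the 39 genes was called under any alternative except Ndufa9 with array weights (wild type minus sham).

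Among the genes that the naming rule chose for the difference between genotypes, 7 changed sign without WT1, and had the same values when sham was left out too: Ndufb5 0.01, Sdha 0.02, Uqcrc2 0.05, Cyc1 0.16, Cycs 0.04, Cox4i1 0.01 and Atp5a1 0.04. Others of the 39 genes turned without WT1 as well, such as Ndufs1 (0.17), Ndufs7 (0.09) and Atp5d (0.08). With array weights Uqcrc2 (0.03), Cyc1 (0.16), Cycs (0.05), Cox4i1 (0.02) and Atp5a1 (0.02) changed sign. Cox5a changed sign without WT2 (-0.02), without KO1 (-0.01) and with quantile normalization (-0.13). Over all fits without 1 array, the lowest and highest differences were -0.24 and 0.01 for Ndufb5, -0.12 and 0.02 for Sdha, -0.24 and 0.05 for Uqcrc2, -0.27 and 0.16 for Cyc1, -0.10 and 0.04 for Cycs, -0.15 and 0.01 for Cox4i1, -0.02 and 0.07 for Cox5a and -0.32 and 0.04 for Atp5a1. The cause was not tested beyond the values of the arrays left out.

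The labels give both day 3 groups the numbers 1 to 3. Deviations of same-numbered arrays from their group means correlated at -0.38, -0.56 and 0.35, and no array matched its own number best. The wild type mean includes the outlying WT1, which shifts the deviations of WT2 and WT3 alike. The check therefore cannot decide whether the numbers pair the samples. With the replicate block, the median of the 39 genes between genotypes was -0.07 and 0 features were called. Slide as a block could not be run, because each slide held 1 genotype.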
